A study of Rattus norvegicus with 62 samples.

Results

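A set of 6 genes was followed across a rosiglitazone study of rat cardiac muscle. They were Hrct1, Ggta1, Afdn, Rubcn, Cytl1 and Slc22a3. Every probe set was taken whose array annotation gives exactly 1 gene and that gene is one of the 6. This gave 10 probe sets of 31042 on the array without its controls, for 6 of 14217 genes named in that way. Of the 10, 8 passed a filter on low signals that 18625 probe sets passed, and 2 dim ones, 1 for Rubcn and 1 for Ggta1, did not. The genes had been picked because they differed from vehicle at 80 mg/kg in these same arrays. Their differences between 80 mg/kg and vehicle are therefore given as a description, without p-values, and the count of calls supports nothing. Every other comparison that uses the 80 mg/kg or the vehicle arrays shares samples with that choice. The 10 mg/kg arrays may have entered the choice as well.

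The animals were male Wistar rats, of an age not given in the sources used here. All received an oral dose once daily during 14 days, of vehicle (0 mg/kg), of rosiglitazone at 10 mg/kg or of rosiglitazone at 80 mg/kg. Rosiglitazone is a thiazolidinedione, an agonist of the nuclear receptor PPAR gamma. Tissue was taken at 6, 24, 168 or 336 h. The titles do not name the starting point of these hours. They are read here, figures included, as hours after the last dose, and on that reading the later times are without drug. By the titles alone, hours from the first dose of the 14 days cannot be told apart from this reading. The 12 groups held 4, 6, 5 and 5 vehicle arrays in that order of times, 5, 5, 5 and 6 arrays at 10 mg/kg, and 5, 5, 6 and 5 at 80 mg/kg, or 62 in all. The labels do not state that each array came from its own animal, so every test measures the spread between these samples.

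A level is given throughout as a log2 signal after quantile normalization between arrays, and a difference as a difference of log2 signals. A probe set's level on this scale depends on its probes, so the order of levels between probe sets is not read as an order of RNA amounts. The cardiomyocyte markers measured, 7 in number, averaged between 12.55 (the dimmest) and 14.07 on this scale, and the tissue label is that of heart muscle. The tissue is a mixture of cells, and in such bulk samples fewer cells of a type and less RNA per cell cannot be told apart.

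Some arrays stood apart from their groups. Replicate 5 of 10 mg/kg at 6 h had a Rbp7 signal of 7.43, against 10.34 to 11.12 in the other 4 arrays of that group. Rbp7 is a retinol-binding protein gene that responds to PPAR gamma. Replicate 4 of 10 mg/kg at 168 h had 7.29, against 8.81 to 9.76 in the other 4. The 20 vehicle arrays ranged from 7.24 to 9.0. Fabp4, a fatty acid-binding protein gene and a classical PPAR gamma target, gave the same picture in both arrays, at 11.66 and 11.71 against 11.70 to 12.12 in vehicle. Both libraries labelled 10 mg/kg were thus at the vehicle level of these genes, and results that rest on them are given with and without them. In addition, 10 arrays of 6 and 24 h held a high signal of the atrial gene Myl7 (9.32 or above, against 8.71 or below elsewhere). They were 1 of vehicle, 4 of 10 mg/kg and 2 of 80 mg/kg at 6 h, and 3 of 80 mg/kg at 24 h. Principal components split the arrays into 3 clusters of 21, 20 and 21 arrays, and all 16 arrays of 336 h fell into 1 of them.

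The genes do unrelated work. Hrct1 encodes a small, histidine-rich protein predicted to sit in the membrane, and little is known of its function. Ggta1 encodes the alpha-1,3-galactosyltransferase that caps N-acetyllactosamine chains with alpha-galactose. This sugar is made in rats and most mammals, and humans lack the working enzyme. Afdn encodes afadin, which ties nectins at adherens junctions to the actin skeleton and lies at the intercalated disc of heart muscle. Rubcn encodes Rubicon, a partner of the Beclin 1 complex that holds back the maturation of autophagosomes. Cytl1 encodes a secreted cytokine-like protein best known from cartilage. Slc22a3 encodes the organic cation transporter OCT3, which clears noradrenaline and other monoamines outside neurons.

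To show the regulatory sequence beside the values, the 250 bases before the transcription start are given for Ggta1, which was higher after the drug, and for Cytl1 and Slc22a3, which showed the largest decreases. The sequences are RefSeq's on build GRCr8, read 5′ to 3′ on the gene's strand. Ggta1 lies at chr3:39206587-39206836 (minus strand), Cytl1 at chr14:77283646-77283895 (minus strand) and Slc22a3 at chr1:50782968-50783217 (plus strand). Capitals mark a GGGCGG box in Ggta1, whose first base lies 225 bases before the start, and a TTTAAA element in Cytl1, at 34 bases before it. Nothing is capitalised in Slc22a3.
Ggta1: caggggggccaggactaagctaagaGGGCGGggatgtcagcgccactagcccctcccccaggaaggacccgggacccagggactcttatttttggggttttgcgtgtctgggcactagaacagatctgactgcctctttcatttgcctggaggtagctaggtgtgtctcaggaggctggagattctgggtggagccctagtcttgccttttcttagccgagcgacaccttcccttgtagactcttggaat
Cytl1: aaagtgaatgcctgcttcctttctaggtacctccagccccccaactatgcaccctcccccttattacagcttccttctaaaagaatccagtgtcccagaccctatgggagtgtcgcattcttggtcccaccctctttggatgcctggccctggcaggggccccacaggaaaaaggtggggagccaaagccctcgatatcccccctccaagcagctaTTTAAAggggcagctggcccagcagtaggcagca
Slc22a3: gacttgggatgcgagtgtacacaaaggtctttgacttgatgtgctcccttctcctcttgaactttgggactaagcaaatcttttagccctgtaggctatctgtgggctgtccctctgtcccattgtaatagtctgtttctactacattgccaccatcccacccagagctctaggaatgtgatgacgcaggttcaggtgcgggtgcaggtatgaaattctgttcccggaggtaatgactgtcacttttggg
Of the 6 genes, 4 were found in the promoter table: Ggta1, Cytl1, Slc22a3 and Rubcn. On both strands, 7 motifs were searched. They were the nuclear receptor half-site AGGTCA, its direct repeat AGGTCANAGGTCA, the E-box CACGTG, the TATA element as TATAAA and as its variant TTTAAA, the CCAAT box and the GC box GGGCGG. The half-site is contained in its own repeat. None of the 4 windows held AGGTCA, its repeat, CACGTG or TATAAA in either orientation. Over 33469 promoter windows of the same length, AGGTCA occurred in 14.1%, the repeat in 17 windows, CACGTG in 5.59% and TATAAA in 12.9%. GGGCGG occurred in 30.5%, TTTAAA in 12.3% and CCAAT in 34.0%, and Rubcn held a CCAAT box, written ATTGG on its own strand, 115 bases before the start. These matches describe letters in a window and nothing about binding.

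Between 80 mg/kg and vehicle, 10 of the 24 pairs of gene and time passed limma's test with Benjamini-Hochberg adjustment over all 18625 probe sets. These calls chose the genes. The share of all tested probe sets called was 0.0537% at 6 h, 0.14% at 24 h, 0.0537% at 168 h and 0.29% at 336 h. In the same order of times, 0.043%, 0.0752%, 0.0376% and 0.247% were called higher, and 0.0107%, 0.0644%, 0.0161% and 0.043% lower. Hrct1 was called at 6, 168 and 336 h and Ggta1 at 168 and 336 h, all higher. Afdn was called at 24 and 336 h, Rubcn at 6 h, Cytl1 at 168 h and Slc22a3 at 336 h, all lower. The median size of the 24 differences was 0.31 at 80 mg/kg. Of the called pairs Afdn at 24 h, with a difference of −0.33, lay nearest to the threshold. Of the uncalled pairs Ggta1 at 6 h, with 0.47, came nearest, but not close to the threshold. In 10 of the 24 pairs the 80 mg/kg arrays did not overlap the vehicle arrays. Over all tested probe sets the 80 mg/kg arrays lay wholly above vehicle in 0.918%, 0.387%, 0.301% and 1.28% at the 4 times, and wholly below in 0.757%, 0.698%, 0.311% and 1.23%.

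Hrct1 was higher at 80 mg/kg than in vehicle at 3 of the 4 times. Its means at 80 mg/kg and in vehicle both stood highest at 336 h, at 9.62 and 9.06. At 6 h the 4 vehicle arrays gave 8.53, 8.61, 8.64 and 8.87, and the 5 arrays at 80 mg/kg gave 9.13, 9.24, 9.27, 9.27 and 9.46. The groups did not overlap, and the difference was 0.61 (SE 0.12, 95% interval 0.37 to 0.85), or 1.53-fold. At 24 h both groups shared a range, from 8.77 to 9.16 in vehicle and from 8.89 to 9.19 at 80 mg/kg, and the difference was 0.12 (SE 0.11, interval −0.09 to 0.34). With arrays scaled to a common median instead, the median of all probe sets moved by −0.17 at 24 h, and the difference of Hrct1 there was −0.10 and that of Ggta1 −0.02.

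By 168 h the Hrct1 groups had parted again. The 5 vehicle arrays gave 8.68, 8.75, 8.83, 8.94 and 9.13. The 6 arrays at 80 mg/kg lay between 9.26 and 9.56 with a median of 9.35, all above the highest vehicle array. The difference was 0.51 (SE 0.11, interval 0.30 to 0.73). At 336 h vehicle gave 8.93, 8.94, 9.05, 9.16 and 9.21, and 80 mg/kg gave 9.34, 9.56, 9.58, 9.76 and 9.84. Again no array overlapped, and the difference was 0.56 (SE 0.11, interval 0.34 to 0.78), or 1.47-fold.

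**Figure D1:**
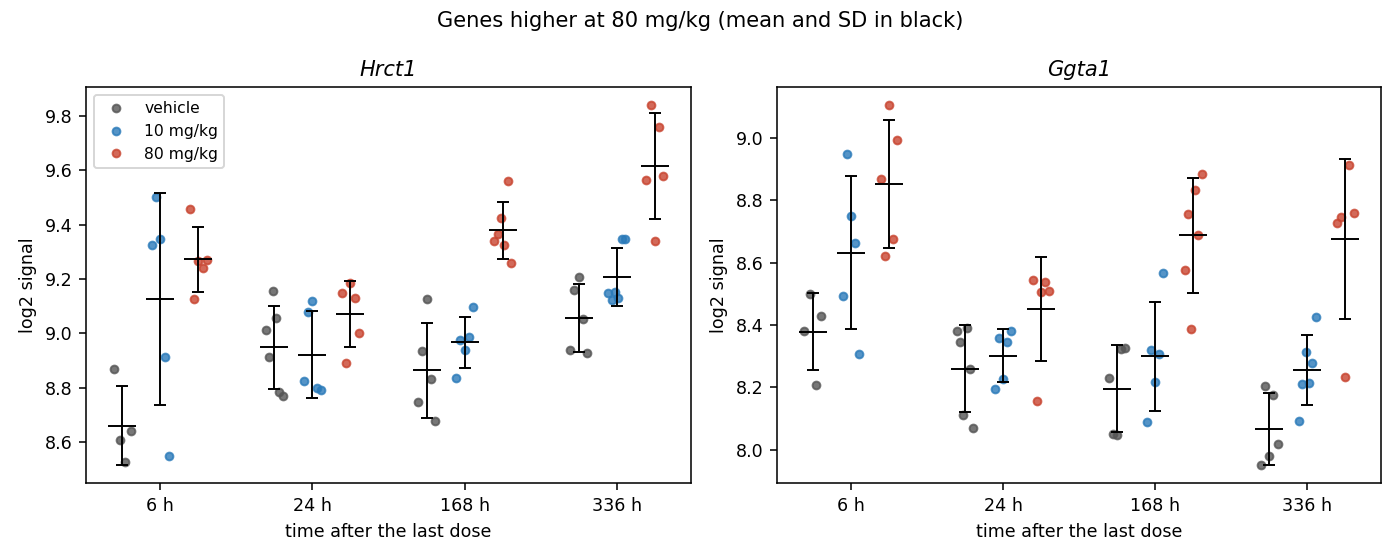
Log2 signal of Hrct1 and Ggta1 by time after the last dose, with 1 point per array, vehicle in grey, 10 mg/kg in blue and 80 mg/kg in red; black marks give the mean and SD of each group. For both genes the 80 mg/kg arrays lie wholly above vehicle at 6, 168 and 336 h and overlap it at 24 h.

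At 10 mg/kg, Hrct1 was high at 6 h in most arrays. The 5 arrays gave 8.55, 8.91, 9.33, 9.35 and 9.50, the lowest being replicate 5, which had vehicle levels of Rbp7 and Fabp4. The difference from vehicle was 0.47 (SE 0.12, interval 0.23 to 0.70) and was not called, with an adjusted p of 0.324 in limma. Without replicate 5 it was 0.61, with an adjusted p of 0.00484 in limma, and with both low-Rbp7 arrays left out the adjusted p was 0.00614. Replicate 5 was picked after seeing the data, by genes that follow Hrct1 within groups, and had the lowest Hrct1 of its group. Its removal had to raise the difference, so these p-values support nothing. The mean of the other 4 arrays, 9.27 ± 0.25 (SD, n = 4), then equalled the mean of 9.27 at 80 mg/kg. The same difference was 0.83 without the arrays of high Myl7, which leaves 1 array in this group, assumed to vary like the other groups. At the 3 later times the differences at 10 mg/kg were −0.03, 0.10 and 0.15, and the intervals held 0.

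Ggta1 was likewise higher at 80 mg/kg at 6, 168 and 336 h. At 6 h vehicle gave 8.21, 8.38, 8.43 and 8.50, and 80 mg/kg gave 8.62, 8.68, 8.87, 8.99 and 9.11. No array overlapped, and the difference was 0.47 (SE 0.12, interval 0.24 to 0.71). At 24 h the difference was 0.19 (SE 0.11, interval −0.02 to 0.40), with 4 of 5 arrays above the vehicle mean. Replicate 3, at 8.16, was the exception. The 3 arrays of high Myl7 gave 8.51 to 8.55, and the other 2, replicate 3 among them, gave 8.16 and 8.51. No vehicle array of 24 h had high Myl7, and the part of this in the result was not tested.

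At 168 h the Ggta1 vehicle arrays gave 8.05, 8.05, 8.23, 8.32 and 8.33, and the 6 arrays at 80 mg/kg ranged from 8.39 to 8.89. At 336 h vehicle gave 7.95, 7.98, 8.02, 8.17 and 8.20, and 80 mg/kg gave 8.23, 8.73, 8.75, 8.76 and 8.91. The groups were apart at both times, by 0.49 (SE 0.11, interval 0.28 to 0.70) and 0.61 (SE 0.11, interval 0.39 to 0.83). The latter is 1.53-fold, at 336 h, where the vehicle mean of 8.07 was the lowest of all 12 groups.

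The 10 mg/kg mean of Ggta1 lay between vehicle and 80 mg/kg at all 4 times. At 6 h the 5 arrays gave 8.31, 8.49, 8.66, 8.75 and 8.95, of which the lower ones overlapped vehicle. The differences from vehicle were 0.25 (interval 0.02 to 0.49), 0.04, 0.10 and 0.19 from 6 to 336 h. At 6 h the low-Rbp7 array, at 8.31, was the lowest of its group, and without it the difference was 0.33. At 336 h all 6 arrays at 10 mg/kg lay above the vehicle mean, with an interval of −0.02 to 0.40. Within groups, Ggta1 ran against the macrophage markers: the residual correlation with the mean of 8 macrophage genes was −0.38 over 62 arrays, and −0.54 over the 52 without high Myl7. All 8 listed macrophage genes were measured, and their mean level ranged from 6.78 to 7.30 in vehicle and from 7.05 to 7.42 at 80 mg/kg at 336 h, where Ggta1 was higher. Their part in the result was not tested.

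Afdn moved the other way and changed its sign with time. At 6 h the vehicle arrays gave 8.77, 8.79, 8.79 and 8.80, a very narrow range, and 80 mg/kg gave 8.85, 8.87, 8.87, 9.01 and 9.12, all higher. The difference of 0.15 had an interval of −0.01 to 0.32. At 24 h vehicle ranged from 8.82 to 9.12 with a median of 8.98, and 80 mg/kg gave 8.50, 8.51, 8.70, 8.71 and 8.82. The groups met at 8.82, and all 5 lay below the vehicle mean, with a difference of −0.33 (SE 0.08, interval −0.48 to −0.18). The 3 of high Myl7 gave 8.70 to 8.82 and the other 2 gave 8.50 and 8.51. No vehicle array of 24 h had high Myl7, and the part of this in the result was not tested.

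The decrease of Afdn was larger at 336 h. Vehicle gave 8.54, 8.62, 8.64, 8.64 and 8.70, and 80 mg/kg gave 7.97, 8.26, 8.27, 8.30 and 8.31. The groups did not overlap, and the difference was −0.41 (SE 0.08, interval −0.57 to −0.25), a decrease of 1.33-fold. At 168 h it was −0.14 (interval −0.29 to 0.01), with all 6 arrays at 80 mg/kg below the vehicle mean. At 10 mg/kg the 24 h arrays gave 8.61, 8.71, 8.75, 8.85 and 8.85. They were lower than vehicle by the largest difference at this dose, −0.22 (interval −0.37 to −0.07), with all 5 arrays below the vehicle mean. The 10 mg/kg difference at 168 h was 0.07 and became −0.02 without the low-Rbp7 replicate 4, which had the highest Afdn of its group at 9.09.

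**Figure D2:**
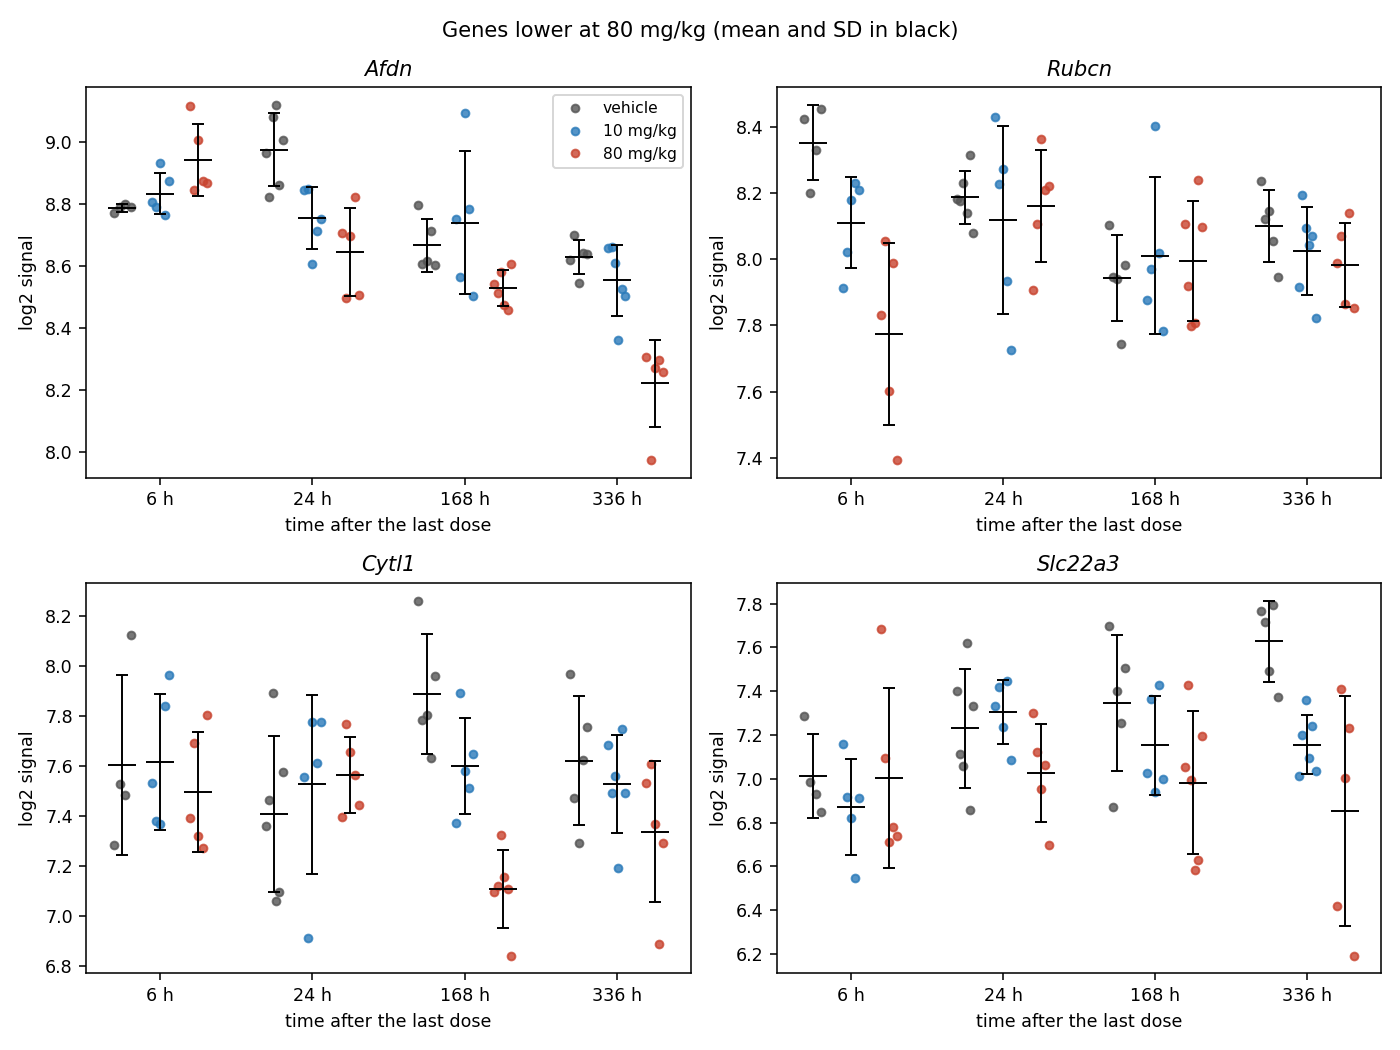
Log2 signal of Afdn, Rubcn, Cytl1 and Slc22a3 by time after the last dose, with 1 point per array, vehicle in grey, 10 mg/kg in blue and 80 mg/kg in red; black marks give the mean and SD of each group. Each gene is lower at 80 mg/kg at its own times: Afdn at 24 and 336 h, Rubcn at 6 h, Cytl1 at 168 h and Slc22a3 at 336 h.

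Rubcn was lower at 80 mg/kg at 6 h, and at the 3 later times its interval held 0. At 6 h vehicle gave 8.20, 8.33, 8.42 and 8.45, and 80 mg/kg gave 7.39, 7.60, 7.83, 7.99 and 8.05. No array overlapped, and the difference was −0.58 (SE 0.12, interval −0.82 to −0.34), a decrease of 1.49-fold. At 24, 168 and 336 h the differences were −0.03, 0.05 and −0.12. The 5 arrays at 10 mg/kg gave 7.91, 8.02, 8.18, 8.21 and 8.23 at 6 h, and overlapped both other groups. Their mean, 8.11, lay between both, at −0.24 from vehicle (interval −0.48 to −0.00049). On the signals as deposited, without rescaling the arrays, the Rubcn difference at 6 h was −0.18, where the median of all probe sets moved by 0.37.

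The 5 low Rubcn values at 80 mg/kg were not alike in the array's own quality measure. The signal of the hexokinase control at its 3′ end exceeded that at its 5′ end by 1.58 and 1.67 in the lowest 2 arrays, replicates 4 and 6, and by 3.66 to 4.22 in the other 3. The vehicle arrays had 1.5 to 2.80. Within the array cluster that held replicates 4 and 6 and 3 vehicle arrays the Rubcn difference was −0.90, and within the cluster of the other 3 arrays and 1 vehicle array it was −0.24. Over 62 arrays the Rubcn residual correlated with the hexokinase difference at 0.46 and with the mean of 7 of 8 listed cardiomyocyte genes at 0.49. The values were similar for 10 of 12 listed endothelial genes (0.43) and for 7 smooth muscle and pericyte genes (0.42). Over all genes searched, the 99th percentile of the residual correlations of Rubcn was 0.56. The cardiomyocyte mean ranged from 13.16 to 13.32 in vehicle and from 13.11 to 13.38 at 80 mg/kg at 6 h. The part of these measures in the result was not tested.

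Cytl1 was lowest at 80 mg/kg and 168 h. Vehicle gave 7.63, 7.78, 7.80, 7.96 and 8.26, and the 6 arrays at 80 mg/kg ranged from 6.84 to 7.32 with a median of 7.11. The groups did not overlap, and the difference was −0.78 (SE 0.15, interval −1.09 to −0.47), a decrease of 1.72-fold. Within the 3 array clusters it ran from −1.16 to −0.48, with as few as 1 array a side. Because the groups did not overlap, the sign within each cluster was fixed beforehand, and nothing is read from it. At 336 h all 5 arrays at 80 mg/kg were below the vehicle mean, with a difference of −0.28 (interval −0.61 to 0.04), and at 6 and 24 h the differences were −0.11 and 0.16. At 10 mg/kg the 168 h arrays gave 7.37, 7.51, 7.58, 7.65 and 7.89, and the difference was −0.29 (interval −0.61 to 0.04), with 4 of 5 arrays below the vehicle mean.

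Slc22a3 was lower at 336 h at both doses. Vehicle gave 7.37, 7.49, 7.72, 7.77 and 7.79. The 80 mg/kg arrays spread widely, at 6.19, 6.42, 7.0, 7.23 and 7.41, and the highest passed the lowest vehicle array. The 6 arrays at 10 mg/kg were closer together, from 7.01 to 7.36, and all lay below every vehicle array. The difference was −0.78 (SE 0.18, interval −1.14 to −0.42) at 80 mg/kg, a decrease of 1.71-fold, and −0.47 (SE 0.17, interval −0.82 to −0.13) at 10 mg/kg. It was the only one of the 24 pairs at 10 mg/kg whose groups did not overlap. Over all tested probe sets the 10 mg/kg arrays lay wholly below vehicle in 0.682%, 0.247%, 0.199% and 0.392% from 6 to 336 h, and wholly above in 0.467%, 0.183%, 0.204% and 0.274%.

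The vehicle mean of Slc22a3 at 336 h, 7.63, was also the highest of all 12 groups. Its 80 mg/kg means at 6, 24 and 168 h were 7.0, 7.03 and 6.98, close to the 6.85 at 336 h. At 168 h the difference from vehicle was −0.36 (interval −0.71 to −0.02), and at 6 and 24 h the intervals held 0. Within groups Slc22a3 followed the actin control's 3′ excess (residual correlation 0.45 over 62 arrays) and ran against the macrophage genes (−0.38), whose mean was given above for the same groups. The actin excess ranged from 0.735 to 1.0 in vehicle and from 0.747 to 0.974 at 80 mg/kg at 336 h. Their part in the result was not tested.

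**Figure D3:**
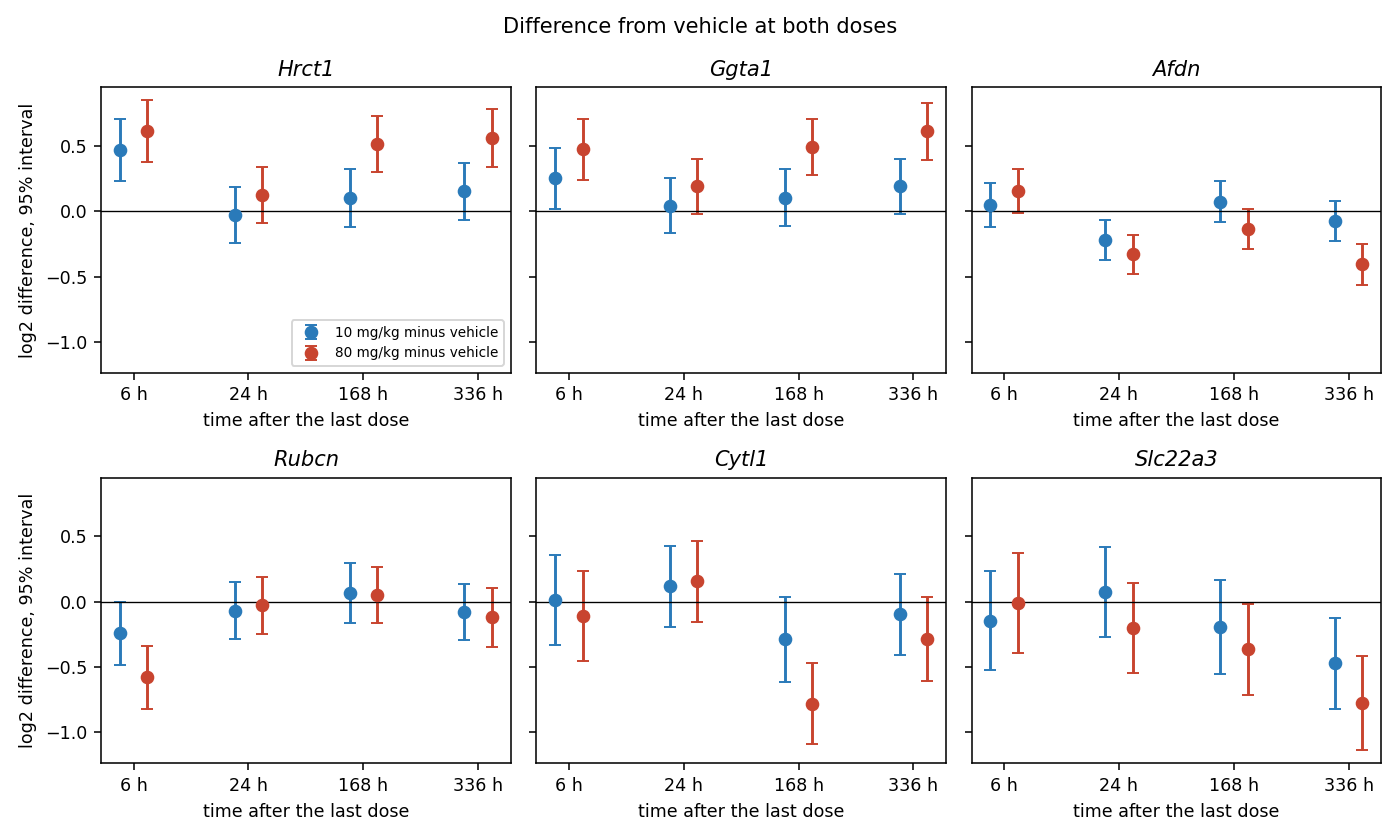
Difference in log2 signal from vehicle (vertical axis) at each time after the last dose for the 6 genes, at 10 mg/kg in blue and 80 mg/kg in red, with 95% intervals from the fit over all arrays. At 80 mg/kg 12 of 24 intervals leave out 0, and at 10 mg/kg 5 of 24. The same limit, an unadjusted p under 0.05, was passed by 7.54% and 4.94% of all tested probe sets on average over the times. The comparisons at 80 mg/kg chose the genes, so their count supports nothing.

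Against vehicle, 0 of 24 pairs were called at 10 mg/kg in limma, beside 0% of all tested probe sets at each of 6, 24, 168 and 336 h. At an unadjusted p under 0.05 there were 5 of 24 pairs at 10 mg/kg, against 4.94% of all tested probe sets on average over the times. The median size at 10 mg/kg was 0.10. In 17 of 24 pairs the 10 mg/kg mean lay between vehicle and 80 mg/kg, in 4 of 4 times for Ggta1, 3 of 4 for Hrct1, Afdn and Cytl1, and 2 of 4 for Rubcn and Slc22a3. Both comparisons use the same vehicle arrays. The genes were chosen for a wide gap between vehicle and 80 mg/kg, which favours a mean in between, so nothing is read from these counts.

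The doses were also compared directly. Of 24 pairs 0 were called between 80 and 10 mg/kg in limma, beside 0%, 0.0107%, 0.0376% and 0.102% of all probe sets from 6 to 336 h. An unadjusted p under 0.05 was found in 9 of 24, against 3.94% of all tested probe sets on average over the times. The 80 mg/kg arrays are those that chose the genes, so these values are a description. Hrct1 was higher at 80 mg/kg by 0.41 (interval 0.20 to 0.63) at 168 h, where the groups did not overlap, and by 0.41 (interval 0.19 to 0.62) at 336 h. Ggta1 was higher by 0.39 (interval 0.18 to 0.60) and 0.42 (interval 0.21 to 0.63) at the same times. Afdn at 336 h differed by −0.33 (interval −0.48 to −0.18), without overlap, and Cytl1 at 168 h by −0.49 (interval −0.80 to −0.18), also without overlap. From 6 to 336 h the 80 mg/kg arrays lay wholly above those of 10 mg/kg in 0.338%, 0.172%, 0.193% and 0.472% of all tested probe sets, and wholly below in 0.231%, 0.252%, 0.172% and 0.301%.

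Levels were also compared between the 4 times within a dose, with limma's F test over all probe sets. The vehicle and 80 mg/kg arrays chose the genes at particular times, so their counts are a description. The comparison of 10 mg/kg with vehicle may also have entered the choice, so the count at 10 mg/kg is a description too. In vehicle 1 of 6 genes was called, beside 8.05% of all probe sets. It was Afdn, with means of 8.79, 8.98, 8.67 and 8.63 from 6 to 336 h. At 80 mg/kg 2 of 6 were called, beside 5.77%. Afdn had means of 8.94, 8.65, 8.53 and 8.22, and Hrct1 of 9.27, 9.07, 9.38 and 9.62.

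At 10 mg/kg 1 of 6 was called, beside 7.17% of all probe sets. It was Ggta1, with 8.63, 8.30, 8.30 and 8.26 and an adjusted p of 0.0472 in limma, just under the threshold. This call was kept in 6 of 13 other settings and in 6 of 21 fits without 1 array of this dose, with adjusted p-values of up to 0.223 in limma. Those 6 were the fits without replicate 1 or 5 of 6 h, 2 or 3 of 24 h, 6 of 168 h or 6 of 336 h, and the call was lost without any of the other 15 arrays. Without both low-Rbp7 arrays, which were picked after seeing the data, Ggta1, Hrct1 and Afdn were called (adjusted p of 0.0173, 0.0347 and 0.0419 in limma). All arrays of 336 h shared 1 array cluster, so time and cluster partly cannot be told apart. With cluster as a term Afdn alone was called at 80 mg/kg, and no gene in vehicle or at 10 mg/kg.

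Over the 12 groups Hrct1 ran from 8.66 (vehicle, 6 h) to 9.62 (80 mg/kg, 336 h), and the next highest group was 80 mg/kg at 168 h with 9.38. Only 2 of the 11 gaps between neighbours in this order passed the residual SD of 0.17. For Ggta1 the order ran from 8.07 (vehicle, 336 h) to 8.85 (80 mg/kg, 6 h), with 1 of 11 gaps above its residual SD. Afdn ran from 8.22 (80 mg/kg, 336 h) to 8.98 (vehicle, 24 h), also with 1 of 11, and the gap of 0.31 set 80 mg/kg at 336 h apart from every other group. The Rubcn order ran from 7.77 to 8.35, with 80 mg/kg and vehicle of 6 h at its ends. Cytl1 had both ends at 168 h, 7.11 and 7.89, and Slc22a3 both at 336 h, 6.85 and 7.63. Rubcn and Slc22a3 had 0 gaps above their residual SD, and Cytl1 had 1.

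Afdn, Ggta1 and Rubcn had further probe sets, all dimmer and noisier. For Afdn the main probe set 1373027_at averaged 8.69 with a residual SD of 0.12, while 1387392_at and 1388036_a_at averaged 5.47 and 5.71 with residual SDs of 0.91 and 0.41. Both shared the sign of the main probe set at 3 of 4 times at 80 mg/kg. At 336 h they gave −1.37 (interval −2.51 to −0.23) and −0.55 (interval −1.05 to −0.04), and at 168 h −1.29 and −0.49. At 24 h they went against it, at 0.49 (interval −0.59 to 1.58) and 0.51 (interval 0.02 to 1.0).

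The second probe sets of Ggta1 and Rubcn lay below the filter. For Ggta1, 1391112_at averaged 4.24 and gave 0.07 at 168 h and 1.01 at 336 h, the sign of the main probe set 1388887_at, but −0.08 and −0.20 at 6 and 24 h. For Rubcn, 1375390_at averaged 2.58 and gave −0.04 at 6 h, against −0.58 for 1371438_at. Of 7 readings by other probe sets at a called difference, 5 had the same sign. Residual correlations of the 4 with the main probe set were between 0.00 and 0.18 over 62 arrays. Hrct1, Cytl1 and Slc22a3 rest on 1 probe set each.

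**Figure D4:**
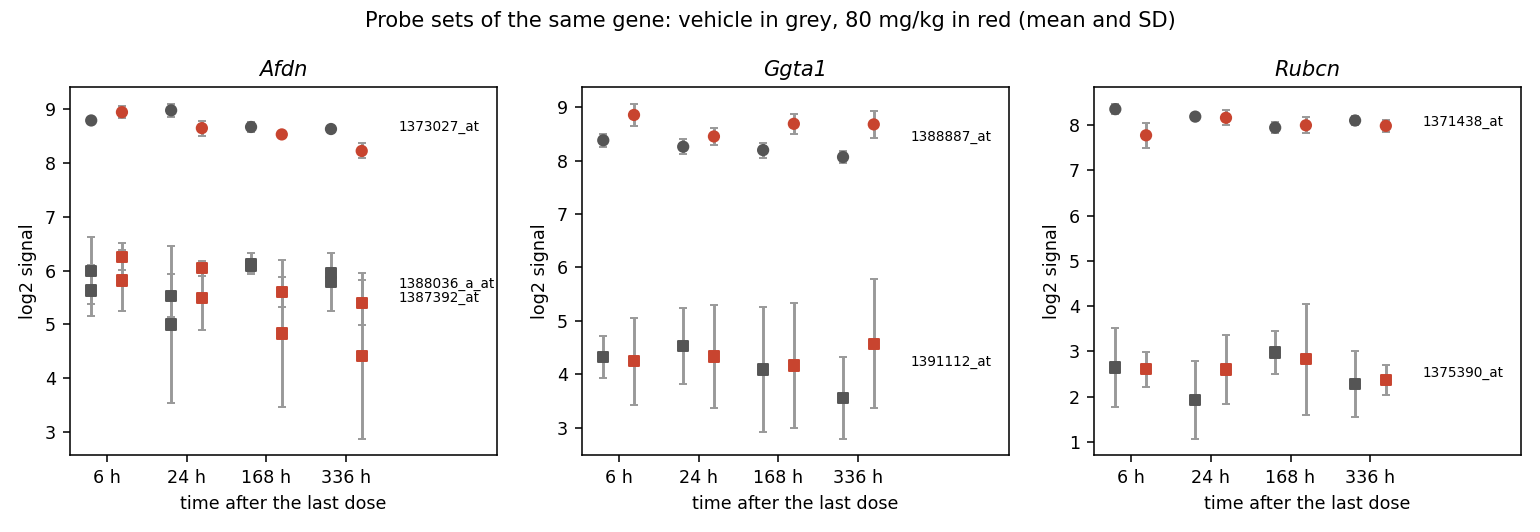
Mean log2 signal with SD of every probe set of Afdn, Ggta1 and Rubcn by time after the last dose, vehicle in grey and 80 mg/kg in red, main probe sets as circles and the others as squares. The other probe sets lie at 2.58 to 5.71 on average with far larger SDs than the main ones.

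The genes nearest in pattern were sought among the tested probe sets whose annotation gives exactly 1 gene. Over the 12 group means, Hrct1 came closest to Mgll (r = 0.96), the monoglyceride lipase gene, then to Plat (0.93), which encodes tissue plasminogen activator, and to Cd320 (0.93), the receptor gene for transcobalamin. Mgll was higher at 80 mg/kg by 0.81, 0.41, 0.75 and 1.01 from 6 to 336 h, with its smallest difference at 24 h, as for Hrct1. Ggta1 came closest to Fabp4 (0.94), Adamts9 (0.93), a secreted metalloprotease gene, and Ctla2a (0.91). Fabp4 was higher by 1.0, 0.73, 0.94 and 1.04. The group means share arrays, doses and times, and likeness of this kind was sought over all those of the 18625 probe sets with 1 gene. Afdn came closest to Phf20l1 (0.94), Pitpnc1 (0.93) and Ints13 (0.91), Rubcn to Tnfrsf17 (0.85), Acp6 (0.84) and Fbxl4 (0.84), Cytl1 to Slc25a39 (0.87), Adgre5 (0.86) and Rabgap1l (0.84), and Slc22a3 to Cops8 (0.92), Lpcat3 (0.91) and Hps1 (0.89).

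Likeness within groups was taken from the 62 residuals around the group means. These leave out the mean difference between doses, but not an uneven response within a dosed group. Hrct1 was nearest to Rbp7 (r = 0.61), Fabp4 (0.61) and Mgll (0.60). These values leaned on the 10 mg/kg arrays of 6 h, where replicate 5 was low in all 4 genes. Without that group they were 0.38, 0.35 and 0.55 (n = 57), and without both low-Rbp7 arrays 0.45, 0.41 and 0.53 (n = 60). In vehicle alone they were 0.32, 0.14 and 0.41 (n = 20). At 10 mg/kg they were 0.71, 0.73 and 0.67, and at 80 mg/kg 0.61, 0.66 and 0.76 (n = 21 each). Ggta1 with Rbp7 had 0.53, and 0.48 without both arrays. In vehicle, at 10 mg/kg and at 80 mg/kg alone this value was 0.39, 0.68 and 0.49. The nearest genes of Ggta1 were Srf (0.63), Rab17 (0.58) and Adam17 (0.56). Those of Afdn were Rcan2 (0.60), Ube2d2 (0.57) and N4bp2 (0.55), and those of Rubcn were Obsl1 (0.70), Cspg4 (0.69) and Ttc3 (0.68). Cytl1 was nearest to Hsd11b1 (0.53), Omd (0.53) and Fmo2 (0.48), and Slc22a3 to Tmx4 (0.61), Heatr5a (0.55) and Faf1 (0.55). Afdn also followed the mean of 3 of 5 listed red blood cell genes, at 0.45. That mean ranged from 9.18 to 9.47 in vehicle and from 9.07 to 9.58 at 80 mg/kg at 336 h, and its part in the result was not tested. Between the 6 genes themselves, Hrct1 and Ggta1 had the highest residual correlation, 0.41, and the other 14 pairs lay between −0.29 and 0.19.

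**Figure D5:**
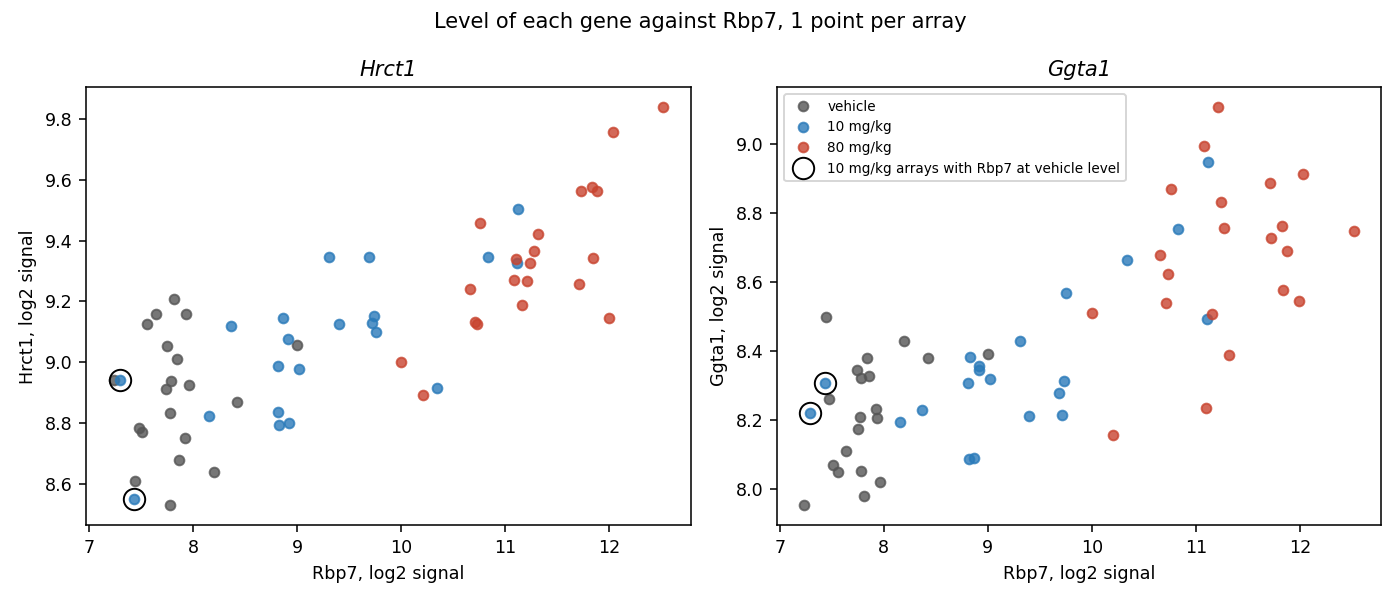
Log2 signal of Hrct1 (left) and Ggta1 (right) against Rbp7, with 1 point per array, vehicle in grey, 10 mg/kg in blue and 80 mg/kg in red. The circled points are the 10 mg/kg arrays with Rbp7 at 7.43 and 7.29, which lie among the vehicle arrays.

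Genes that work with the 6 were examined as 5 lists with 159 measured genes. None was called against vehicle at either dose or any time in limma, and the smallest adjusted p was 0.0818. At an unadjusted p under 0.05 there were 80 of 1272 readings, or 6.29%, against 6.24% for all tested probe sets. Around Ggta1, 30 genes of N-acetyllactosamine synthesis and capping had a median difference of 0.01 at 80 mg/kg and 336 h, beside −0.01 for all probe sets. In this list Ugp2, which makes UDP-glucose, differed by 0.17 (SE 0.09), and the sialyltransferase gene St3gal5 by 0.09 (SE 0.09), at that time. Around Afdn, 35 genes of nectin junctions and the intercalated disc had a median of 0.08, opposite in sign to Afdn, with 24 above 0 and 11 below. The brightest, the connexin 43 gene Gja1 and the desmoplakin gene Dsp, differed by −0.03 (SE 0.07) and 0.04 (SE 0.06).

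Around Rubcn, 50 autophagy genes had a median of −0.01 at 80 mg/kg and 6 h, beside 0.01 for all probe sets, with 21 above 0 and 29 below. The LC3 gene Map1lc3a differed by −0.12 (SE 0.20) and its relative Gabarap by 0.08 (SE 0.06). Around Slc22a3, 20 genes of cation transport and monoamine clearance had a median of −0.05 at 336 h, and monoamine oxidase A (Maoa) differed by 0.77 (SE 0.40) and aldose reductase (Akr1b1) by 0.00 (SE 0.11). Around Cytl1, 24 cartilage and chondrogenic genes had a median of 0.04 at 168 h, opposite in sign to Cytl1. The osteoglycin gene Ogn differed by 0.01 (SE 0.57) and the transcription factor gene Scx by 0.01 (SE 0.11).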

How the data were processed

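Expression in 62 samples of rat cardiac muscle was measured with an Affymetrix array, 1 array per sample. The authors deposited a linear intensity for each probe set on each array. GCOS and MAS5 are named per the submitters' processing notes, and their versions are not given in the sources used here. Deposited array medians ran from 31.1 to 86.9, so arrays shared no common scale.

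From the 31099 probe sets 57 controls were left out. Log2 signals were quantile normalized, and probe sets were kept at or above the 40th percentile of mean log2 signal (5.03), which left 18625. limma 3.58.1 (R 4.3.3) fitted a mean to each of the 12 groups (50 residual degrees of freedom). P-values were adjusted by Benjamini-Hochberg over all kept probe sets, with a call below 0.05. Intervals are 95%. The fit was tested on simulated data. The main probe set of a gene is the kept one with the largest absolute t in limma over the 8 comparisons of a dose with vehicle. It was thus picked by differences that it then reports. Only for Afdn, with 3 kept probe sets, was there a choice to make. In each gene the main probe set was also the brightest. The number of arrays limits the precision.

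The 6 genes and the gene lists were chosen with earlier results of these data known. For each gene the 3 nearest genes by Pearson correlation over 12 group means and over 62 residuals are named, and for each list the called genes or, with none called, the 2 brightest. In the annotation 20826 probe sets had 1 gene and 436 several, and none was named from several. The files name no genome build, so gene coordinates come from the promoter table alone. Protein sequences were not used here. No arrays held identical values, and rank correlations within groups ran from 0.891 to 0.962. The labels do not say whether replicate numbers pair the samples. Of 52 same-numbered pairs at a time, 14 had a residual correlation over 0.1. The median was 0.0071 for same-numbered and −0.0056 for differently numbered pairs, which cannot exclude a pairing in the design. Alternatives were another scaling, filter and offset, array weights, a replicate block, array cluster or control 3′ to 5′ differences as terms, 1 time or dose alone, and left-out arrays.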

Additional observations from a re-analysis of the deposited data

Results flagged for a closer look

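In 4 of 72 groups of a gene 1 array lay far from the others, where chance gives about 1 group in 20. Ggta1 was 8.16 in replicate 3 of 80 mg/kg at 24 h, against 8.51 for the nearest array, and 8.23 in replicate 3 of 80 mg/kg at 336 h, against 8.73. Afdn was 7.97 in replicate 2 of 80 mg/kg at 336 h, against 8.26. Cytl1 was 6.91 in replicate 2 of 10 mg/kg at 24 h, against 7.55.

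Afdn at 80 mg/kg differed in direction between times. All 5 arrays lay above the vehicle mean at 6 h, by 0.15, and all lay below it at the later times, by −0.33 at 24 h, −0.14 at 168 h and −0.41 at 336 h. This difference between times was not tested.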

How the results depend on the processing

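The number of called pairs at 80 mg/kg against vehicle was 10 and became 4 with each time fitted alone, 6 with array weights, 0 on the log2 signals as deposited and 5 with no filter. With a common median it was 7, which lost Rubcn at 6 h, Hrct1 at 168 h and Afdn and Slc22a3 at 336 h and gained Ggta1 at 6 h. Leaving out each array in turn gave 7 to 10. At 10 mg/kg it was 0, and 1 without the arrays of high Myl7 or without both low-Rbp7 arrays (0 to 1 with 1 array left out). Between doses it was 0, and 3 with array weights and 1 with array cluster or the control 3′ to 5′ differences as terms, with a common median, with the filter at the 60th percentile, with a replicate block, and without the high-Myl7 or both low-Rbp7 arrays (0 to 1). Genes called between times in vehicle, 1, became 2 fitted alone, with array weights, with the replicate block or without both low-Rbp7 arrays, and 0 with cluster or on the deposited scale (1 to 2), and with the control differences it was Slc22a3 in place of Afdn. At 10 mg/kg 1 became 0 fitted alone, with cluster, with a common median, with no filter or without the 3 arrays of high actin 3′ excess, 2 with array weights or the 60th percentile, and 3 without both low-Rbp7 arrays (0 to 2), and on the deposited scale or without high Myl7 it was Hrct1 in place of Ggta1. At 80 mg/kg 2 became 1 with cluster, 4 on the deposited scale, and 3 with the control differences (with Rubcn) or a common median (with Ggta1) (2 to 3). Of the 7 readings by other probe sets the 5 of the same sign became 3 on the deposited scale. The cause of these changes was not tested. Afdn at 24 h was reversed in its other probe sets, at 0.49 and 0.51. The replicate block gave 9 calls at 80 mg/kg against vehicle, although the labels do not say that the numbers pair the samples. On the deposited scale the median of all probe sets moved by 0.37, −0.30, −0.21 and 0.04 at the 4 times.

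The calls at 80 mg/kg against vehicle chose the genes, so what follows describes which arrays they rest on. Those of Hrct1, Ggta1 and Afdn at 336 h stayed under the threshold with each of the 10 arrays left out in turn. Others were lost when a single array was removed, with the same sign throughout. For Rubcn at 6 h these were vehicle replicates 1, 5 and 6 and also 1, 4 and 6 of 80 mg/kg (−0.65 to −0.48), and for Hrct1 at 6 h replicates 5 and 6 of vehicle and 1 of 80 mg/kg. For Hrct1 at 168 h they were vehicle replicates 1, 2, 4 and 5 and also 3 and 5 of 80 mg/kg, and for Cytl1 at 168 h replicates 1 and 5 of vehicle and 6 of 80 mg/kg (−0.85 to −0.69). For Ggta1 at 168 h they were all 5 vehicle arrays and replicates 2, 4, 5 and 6 of 80 mg/kg, for Afdn at 24 h vehicle replicates 1, 3, 4 and 6 and also 2, 3, 4 and 6 of 80 mg/kg, and for Slc22a3 at 336 h vehicle replicates 2, 3 and 5 and also 1 and 5 of 80 mg/kg (−0.92 to −0.61). Over all other settings but left-out arrays and other probe sets, 892 of 936 single differences moved by less than their spread and 44 moved further. The planned limit on actin 3′ excess held no array; the lower limit, 1.5, and both low-Rbp7 arrays were chosen after seeing the data.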

Other observations

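The levels of genes in the 5 lists were also compared between the 4 times. By limma's F test, 6 of 50 autophagy genes were called in vehicle, 8 at 10 mg/kg and 5 at 80 mg/kg, beside 8.05%, 7.17% and 5.77% of all probe sets. Map1lc3a was called in all 3 arms (adjusted p of 0.0279, 0.0195 and 0.0162), with vehicle means of 11.04, 11.16, 10.93 and 11.66 from 6 to 336 h and 80 mg/kg means of 10.92, 11.22, 10.99 and 11.68. Gabarap was called at 10 mg/kg (adjusted p = 0.00683). Of 35 genes around Afdn, 5, 3 and 7 were called in the 3 arms, of 30 around Ggta1 4, 0 and 1, of 20 around Slc22a3 1, 1 and 0, and of 24 around Cytl1 1, 0 and 1. The part of the array clusters in these differences was not tested.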
